A study of Mus musculus with 14 samples.

Results

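The genes of the cytosolic ribosomal proteins were followed across sorted hair follicle stem cells of the mouse. Members were the protein-coding genes of the GENCODE annotation whose symbol is Rpl or Rps followed by a number, together with Rpsa and the stalk genes Rplp0, Rplp1 and Rplp2, and without the Rps6k kinases. The rule found 83 of the 36047 genes with a transcript in the tables, 51 named for the large subunit and 32 for the small subunit. It does not reach 5 genes that belong with them by function or sequence, such as Fau, Rack1 and Rpl36al, which were kept as a separate list.

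Ribosomal proteins and ribosomal RNA assemble into a large and a small subunit, the small one decoding messenger RNA and the large one joining amino acids. Most of their messenger RNAs begin with a run of pyrimidines, the TOP element, through which mTOR signalling controls their translation together. Mammalian genomes carry many processed pseudogenes of these genes, intronless copies made from their messenger RNA, so a short read from a ribosomal protein transcript often matches several places. Hair follicle stem cells of the bulge rest between hair cycles and start to divide when a new cycle begins.

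By its title, the study asked how the homeodomain factor Irx5 bears on repair of damaged DNA and on stem cell activation. Total RNA of cells sorted from back skin as CD34+ and Ly-6A/E-, and positive for a marker the labels write as CD45f, was sequenced as single-end reads. The 14 libraries were labelled Irx5KO (n = 3) or WT (n = 3) at postnatal day 18 (P18), and Irx5KO (n = 4) or WT (n = 4) at postnatal day 20 (P20). The labels give no allele, strain or sex and do not say whether a library is a single mouse or a pool, so p-values measure the spread between libraries only. A 6-digit code in the deposited data splits each age into an earlier and a later set, each holding both genotypes. At P18 the earlier set is made up of WT 1, WT 2 and Irx5KO 1, and the later set of WT 3, Irx5KO 2 and Irx5KO 3. WT 3 is also marked het in the deposited data. The earlier P20 code held libraries 3 and 4 of both genotypes and the later one libraries 1 and 2. The labels do not say what the code stands for.

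The libraries held between 13618367 and 70083873 estimated counts. Irx5 itself was read first. It lay at 48.0, 70.6 and 73.4 CPM (counts scaled for library size and composition) in P18 Irx5KO 1 to 3, against 93.8, 109.6 and 132 CPM in P18 WT 1 to 3. At P20 it lay at 30.0 and 18.1 CPM in Irx5KO 1 and 2 against 108 and 93.5 CPM in WT 1 and 2. The libraries labelled P20 Irx5KO 3 and 4 go against their labels: Irx5 lay at 181 and 170.1 CPM in them and at 33.2 and 37.5 CPM in the libraries labelled P20 WT 3 and 4. The edgeR quasi-likelihood test with Benjamini-Hochberg adjustment put Irx5 lower under the Irx5KO label in libraries 1 and 2 (adjusted p = 0.00180) and higher in libraries 3 and 4 (adjusted p = 0.000146). At P18, where all Irx5KO libraries lay below all WT libraries, the difference of -0.98 ± 0.88 (log2 ± SE) did not pass (adjusted p = 0.920), and over all 8 P20 libraries it was 0.12 ± 0.92 (adjusted p = 0.993). Mki67, a gene of dividing cells, lay at 1252 and 1418 CPM in P20 Irx5KO 3 and 4, at 429 and 228 CPM in P20 WT 1 and 2, and at 3.75 to 36.5 CPM elsewhere. Markers of the sorted cells were present in every library, with Krt15, the bulge keratin, at 4829.9 to 17218 CPM and the summed level of 13 bulge genes at 23620.3 to 53091 CPM. Ly6a, the gene of the marker selected against, lay at 0 to 2.72 CPM, and the leukocyte gene Ptprc at 0.0552 to 20.5 CPM. Other genes of Ly-6A/E-positive epidermis were present: the 11 genes listed for it, Ly6a included, summed to 871 to 9168 CPM. Krt10, a keratin among them, lay at 147 to 3034 CPM, highest in P20 Irx5KO 1. Summed markers reached 145 CPM for immune cells, 126 for endothelium, 327 for fibroblasts, 254 for melanocytes, 24.1 for red cells and 44.3 for muscle, each in the library with most. The 3 libraries with most reads on olfactory and vomeronasal receptor genes were P18 WT 1, P18 WT 2 and P20 WT 2.

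Near-identical copies take up reads that may belong to a single ribosomal protein gene. A search of the coding sequences against every listed transcript found 1039 other genes that match a member at 90% identity or more over at least 50% of its coding sequence, 1020 of them pseudogenes and 19 annotated as protein-coding. Of the 83 members 78 had such a copy, with a median of 9 and up to 84 for Rpl7a, a protein of the large subunit. Rpl8 and Rpl41 were among the 5 without any. In 15 members at least 1 copy was identical over the whole coding sequence, and in 29 members every stretch of 31 bases of the coding sequence also occurs in another gene's transcript. The copies held between 27.9% and 33.8% of the summed counts of members and copies in a library. All values below are therefore given for the gene alone, for the gene with its copies added, or for both.

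Rpl26 and Rps18 show the problem in their letters and are printed for that reason. Rpl26, a large-subunit protein near the exit tunnel, lies at chr11:68901583-68906989 on the plus strand of GRCm38. Its closest expressed copy, the processed pseudogene Gm15772, lies at chr5:3236431-3236868 on the plus strand. Over the 438 coding bases the pair differ by 2 substitutions, C177T and T288C, counted from 1 at the first coding base and written with the gene's base first. Rps18, a protein of the small-subunit head, lies at chr17:33951999-33956001 on the minus strand, and its copy Gm10260, annotated as protein-coding, at chr13:97760072-97760632 on the minus strand. That pair differ by 4 substitutions over 459 coding bases, T186C, A337C, G371A and G431A. The stretches below are coding sequence on the sense strand, 5′ to 3′, from GENCODE transcripts, with the differing base in capitals.
Rpl26 coding bases 162 to 192: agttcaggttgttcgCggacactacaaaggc
Gm15772 same bases: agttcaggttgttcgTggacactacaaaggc
Rpl26 coding bases 273 to 303: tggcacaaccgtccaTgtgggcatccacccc
Gm15772 same bases: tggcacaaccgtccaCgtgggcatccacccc
Rps18 coding bases 171 to 201: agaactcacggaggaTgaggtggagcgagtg
Gm10260 same bases: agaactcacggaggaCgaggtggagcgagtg
Rps18 coding bases 356 to 386: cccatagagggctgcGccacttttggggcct
Gm10260 same bases: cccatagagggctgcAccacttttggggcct
The longest run without any difference is 176 bases between Rpl26 and Gm15772 and 185 bases between Rps18 and Gm10260. Of the 31-base windows of the most abundant transcript, 76.2% were shared with another gene for Rpl26 and 86.2% for Rps18, against a median of 67.3% over the 83 members. For Rpl8, which has no copy, the share was 10%.

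Counted alone, Rpl26 differed widely between libraries, and summed with its copies it spanned a narrower range. The gene stood at 15.4, 34.9 and 33.0 CPM in P18 Irx5KO and at 13.4, 8.31 and 32.9 CPM in P18 WT. At P20 it stood at 527, 549, 23.6 and 27.8 CPM in Irx5KO 1 to 4 and at 28.3, 23.2, 89.0 and 551 CPM in WT 1 to 4. High values stood in both P20 codes, in the libraries labelled Irx5KO 1, Irx5KO 2 and WT 4. Irx5 itself was low in those 3, at 30.0, 18.1 and 37.5 CPM, and also in the library labelled WT 3, at 33.2 CPM. In the 4 P20 libraries with high Irx5, labelled WT 1, WT 2, Irx5KO 3 and Irx5KO 4, Rpl26 stood at 23.2 to 28.3 CPM. In the 3 libraries with high Rpl26, Gm15772 stood at 619.5, 572 and 649 CPM, and in the other 5 P20 libraries at 802 to 1178 CPM. With copies added, Rpl26 spanned 830.4 to 1272 CPM over the 8 P20 libraries. The share of the summed counts that the gene itself held ran from 1.87% to 48.6%.

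Rps18 moved with the code. It stood at 43.4, 38.5 and 28.8 CPM in the earlier-code P18 libraries Irx5KO 1, WT 1 and WT 2, and at 334, 340.1 and 377 CPM in the later-code ones, Irx5KO 2, Irx5KO 3 and WT 3. At P20 it stood at 87.5, 120.1, 91.1 and 77.2 CPM in the earlier code and at 294, 274, 325 and 289 CPM in the later code. Gm10260 went the other way, at 117 to 170.0 CPM in the earlier and 4.49 to 6.63 CPM in the later P18 code. The groups of libraries did not overlap in either gene. At P20 Gm10260 stood at 319 to 478 CPM in the earlier and 200.2 to 247 CPM in the later code. The effective lengths in the deposited tables lie 99 bases under the transcript length in the 3 later-code P18 libraries and 96 bases under it in the other 11, and the part of this difference in the split was not tested.

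**Figure D1:**
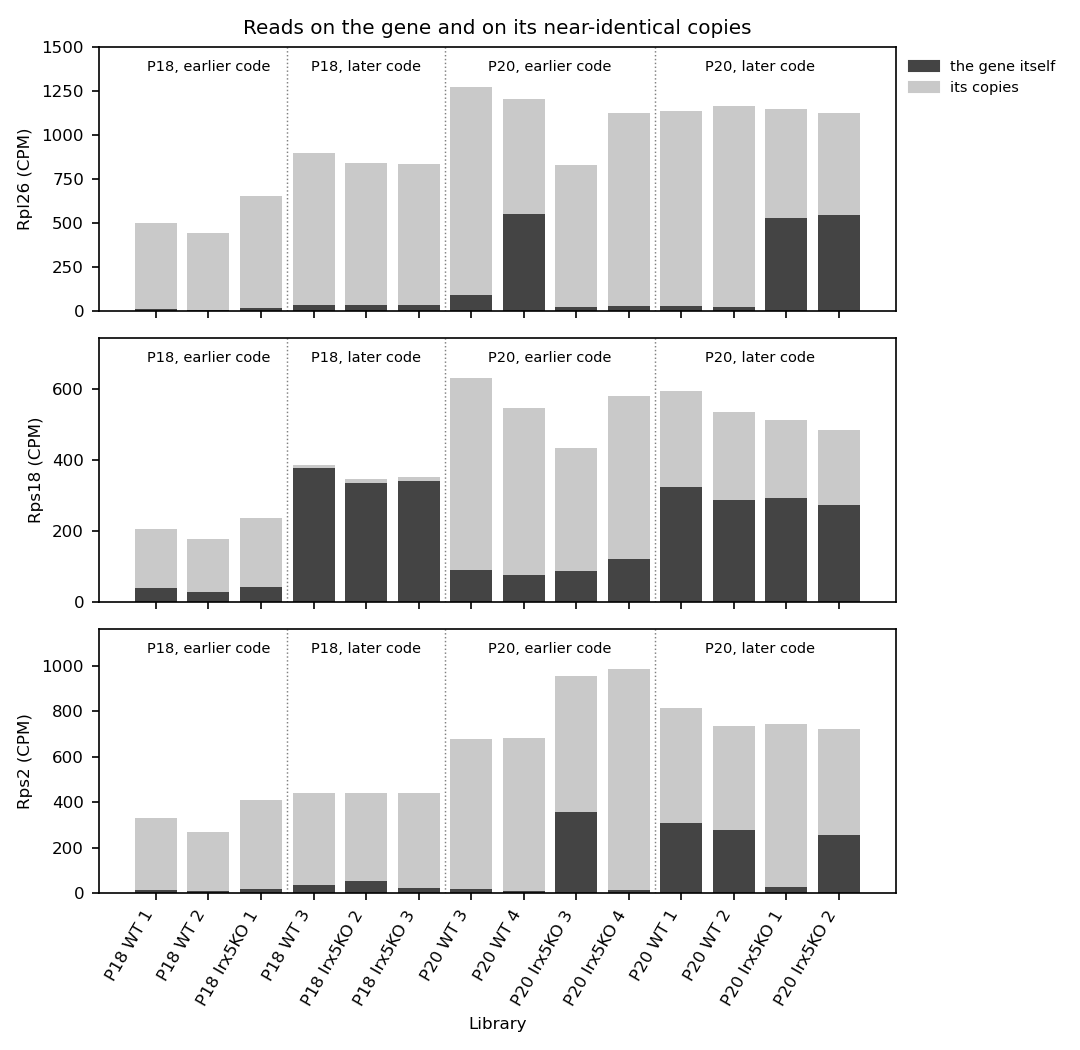
Level in each library (CPM, scaled for composition) of Rpl26, Rps18 and Rps2 (dark) with their near-identical copies stacked on top (light), libraries ordered by age and code. The dark part of Rpl26 is tall in P20 WT 4, Irx5KO 1 and Irx5KO 2 only, and that of Rps18 follows the code, while the whole bar varies less.

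Rps2, a protein of the small-subunit body, split over 2 pseudogenes. The gene stood at 258, 311, 278 and 356 CPM in P20 Irx5KO 2, WT 1, WT 2 and Irx5KO 3, and at 9.83 to 54.7 CPM in the other 10. Its copy Rps2-ps13 stood at 203 to 362 CPM at P18, 309 to 653 CPM in the later P20 code and 1.48 to 3.95 CPM in the earlier P20 code, where Rps2-ps10 stood at 566 to 944 CPM. With copies added, Rps2 spanned 676 to 984 CPM at P20. Across members, 20 held under 50% of the summed counts of their family and 7 under 10%: Rpl3, Rpl5, Rpl12, Rpl21, Rpl34, Rps7 and Rps23. For Rpl5, which with Rpl11 and the 5S RNA binds Mdm2 when ribosome assembly is disturbed, the identical copy Gm15500 held 411 to 1497 CPM and the gene 50.6 to 203 CPM. For Rps6, the substrate of the S6 kinases, Rps6-ps4 held 293 to 780.0 CPM and the gene 49.6 to 188 CPM. For Rpl27, a large-subunit protein, Rpl27-ps3 and Gm11518 are identical over the coding sequence and each averaged 84.3 CPM over 14 libraries, against 73.6 CPM for the gene. At the other end, 46 members held over 90% of their family's counts, among them Rpl13a, Rplp1, Rplp2, Rpsa, Rps4x, Rpl23 and Rpl38. The share of a member's 31-base windows found in other genes and the share of counts it kept had a Spearman correlation of -0.26 over 80 members, all from the same libraries. Rps27 kept 98.9% of its counts although 98.7% of its windows occur elsewhere.

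Adding copies removed the widest spreads over the 14 libraries and left the typical spread nearly as it was. The standard deviation of log2(CPM + 1) over all 14 libraries, for the 80 members that averaged at least 5 TPM (transcript abundance, a level per length), had a median of 0.473 for genes alone and 0.454 with copies. It exceeded 1 in 3 members alone, Rpl26 at 2.00, Rps2 at 1.93 and Rps18 at 1.32, and in 0 with copies. With copies the widest were Rpsa at 0.683, Rplp0 at 0.675, Rps18 at 0.592, Rplp1 at 0.588 and Rpl8 at 0.587. Rpsa sits on the small subunit and is also known as a laminin receptor, Rplp0 and Rplp1 build the stalk that binds elongation factors, and Rpl8 lies near the peptidyl transferase centre. The steadiest with copies were Rpl7l1 at 0.247, Rpl17 at 0.256, Rps25 at 0.312, Rps24 at 0.328 and Rpl35a at 0.335.

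With copies added, the level per length of the highest member was 111 times that of the lowest among the 80 expressed members, and the SD of log2 TPM between members was 1.14. In this unit the 80 members had a median of 850.6 TPM (mean over 14 libraries), against 464 TPM for the genes alone. The highest with copies were Rpl13a at 3099 ± 807 TPM, Rps23 at 2969.9 ± 830.0, Rpl26 at 2911 ± 707 and Rplp2 at 2069.9 ± 425 (SD over 14 libraries). The first 3 in that order lay within each other's spread. Rps23, which shapes the decoding centre, stood at 140.2 ± 65.3 TPM when counted alone, near the bottom of the list. Below 300 TPM with copies lay only Rps13, Rpl39, Rpl22l1, Rps27l and Rpl7l1 among the 80. The summed TPM of the large-subunit members was 1.64 to 1.83 times that of the small-subunit members in every library when copies were added.

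**Figure D2:**
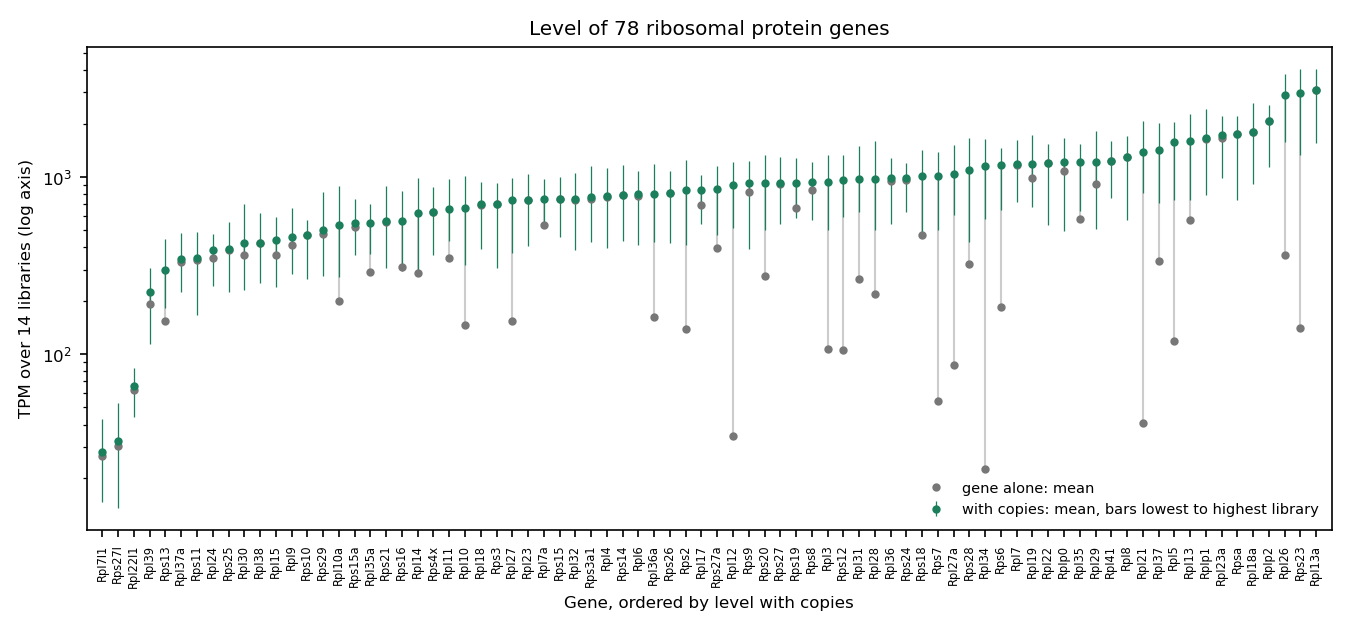
Mean TPM over 14 libraries (log axis) of 78 of the 80 members above 5 TPM, for the gene alone (grey) and with copies added (green, bars from the lowest to the highest library). Grey points far under their green point belong to genes whose reads lie mostly on a copy, such as Rpl34, Rpl12, Rpl21 and Rps7.

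The paralogues with tissue-restricted roles were low or near 0. Rpl3l, a striated-muscle paralogue of Rpl3, reached 3.70 TPM in P18 WT 2, the library with the most receptor reads and the highest summed muscle markers, and was listed at 0 in 6 of 14 libraries. The next highest was P18 Irx5KO 2 at 2.85 TPM, where muscle markers summed to 4.21 CPM and receptor genes held 0.579% of counts. Rpl10l, a testis paralogue of Rpl10, reached 5.61 TPM in P18 WT 2. Rpl39l, known from testis, reached 0.830 TPM, in P18 Irx5KO 2. Rpl7l1, Rps27l and Rpl22l1 were expressed throughout, at 14.6 to 42.9, 13.5 to 52.9 and 44.0 to 83.2 TPM with copies, against 726 to 1625, 544 to 1302 and 534 to 1534 TPM for Rpl7, Rps27 and Rpl22. Rps27l, a p53 target in human cells, stood at 5.95, 5.05, 17.3 and 17.8 CPM in P20 Irx5KO 1 to 4 and at 11.5, 13.1, 9.09 and 12.6 CPM in P20 WT 1 to 4. Irx5KO 1 and 2 were the lowest of these 8 libraries and Irx5KO 3 and 4 the highest.

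The main division among the libraries ran through the P18 group and followed the code. Members held 1.65%, 1.48% and 1.17% of all estimated counts in P18 Irx5KO 1, WT 1 and WT 2, and 2.58%, 2.28% and 2.63% in Irx5KO 2, Irx5KO 3 and WT 3. At P20 they held 2.71%, 2.58%, 2.76% and 3.27% in Irx5KO 1 to 4 and 2.87%, 3.12%, 2.98% and 3.06% in WT 1 to 4. The 3 earlier-code P18 libraries lay below all 11 others. With copies the share was 1.77% to 2.43% in those 3, 3.24% to 3.69% in the later-code P18 libraries and 3.71% to 4.74% at P20. As shares of TPM, members held 2.42% to 3.39%, 4.82% to 5.33% and 4.60% to 6.27% in the same order. In bulk RNA, fewer cells of a kind and less RNA per cell cannot be told apart.

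**Figure D3:**
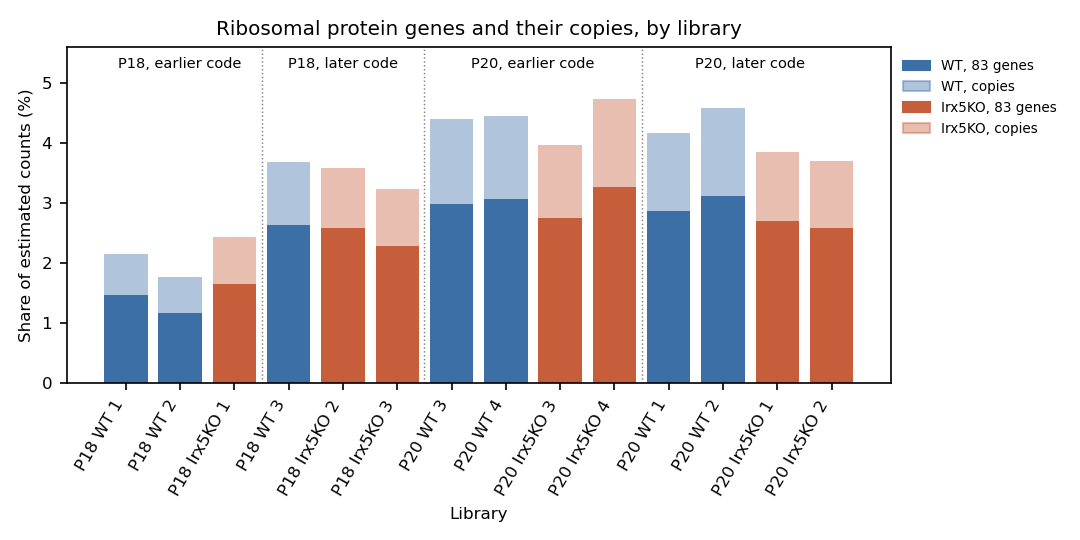
Share of a library's estimated counts on the 83 members (full colour) and on their copies (pale), by library, ordered by age and code, WT in blue and Irx5KO in orange. The 3 libraries of the earlier P18 code, with 1.77% to 2.43% for both together, lie below the 11 others, which span 3.24% to 4.74%.

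Most single members showed the same split. Later-code P18 libraries were higher than all earlier-code ones in 70 of 83 members, against 6.72% of all genes tested and 13.3% of those of at least 8 CPM, and with copies in 76 of 83 against 6.59% and 13.1%. By either count 0 of 83 were lower in all of them, against 11.3% and 11.4% of all genes tested. Among genes of at least 8 CPM these shares were 8.95% and 8.92%. With copies, 65 of 83 members lay lower in the 3 earlier-code P18 libraries than in all 11 others. The share was 1.47% of all genes tested and 3.34% of those of at least 8 CPM. With copies P18 WT 2 was also the lowest library for 70 of the 80 expressed members. The median log2 difference, later minus earlier, was 0.75 over members and -0.02 over the 10522 genes of at least 8 CPM, and with copies 0.65 and -0.02. At an unadjusted p under 0.05, 63 of 83 members were higher and 0 lower, against 3.98% of all genes tested in either direction, and with copies 65 against 3.83%. After Benjamini-Hochberg adjustment in edgeR, 2 members rose and 0 fell by gene counts, against 0.0122% of all genes tested that rose and 0.0366% in either direction: Rps18 by 3.22 ± 0.25 (log2 ± SE, adjusted p = 1.43e-05) and Rpl27 by 1.94 ± 0.23 (adjusted p = 0.00199). With copies 0 passed, against 0.0166% of all genes, and Rps18 then differed by 0.79 ± 0.22 and Rpl27 by 0.91 ± 0.22. By gene counts DESeq2 called 23 members and limma voom with quality weights 18. Without P18 Irx5KO 1 or without P18 WT 3, edgeR called 1.

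The genes with the smallest p in that comparison, with copies, were Rps28, Rplp0 and Rpsa. Rps28 stood at 601, 585 and 428 TPM in P18 Irx5KO 1, WT 1 and WT 2 and at 1664, 1337 and 1479.6 TPM in Irx5KO 2, Irx5KO 3 and WT 3, a difference of 1.31 ± 0.23 (adjusted p = 0.105, edgeR). Rplp0, the stalk base, stood at 643, 513 and 495 TPM in the earlier-code libraries against 1181, 1249 and 1209.8 TPM in the later-code ones, in the same order, a difference of 1.17 ± 0.25. Rpsa stood at 889, 810.0 and 745 TPM against 1910.5, 1658 and 2002 TPM. None of these groups overlapped, and the lowest later-code value of Rpsa was 1658 TPM. Rpl13a, which is released to silence translation in the interferon response of human cells, stood at 2208, 1665 and 1546 TPM against 3198, 3269 and 3267 TPM. Rpl41, the shortest of the ribosomal proteins, named after its values were seen as a member with no copy, stood at 1029.9, 899 and 761 TPM against 1278, 1188 and 1150.5 TPM. These groups did not overlap either. Groups overlapped in Rpl7l1, at 25.8, 30.5 and 32.4 TPM against 21.5, 42.9 and 41.8 TPM. For Rps19, a gene mutated in Diamond-Blackfan anaemia, the overlap depended on the scale. Its groups overlapped in TPM, at 796, 705 and 584 against 1175, 1265 and 716, but not in CPM, at 248, 211 and 173 against 337, 383 and 319. In CPM with copies, the 7 members whose codes overlapped were Rpl7a, Rpl7l1, Rpl11, Rps14 and the paralogues Rpl3l, Rpl10l and Rpl39l.

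Members with known roles in disease and development showed the same order of codes with copies added, in TPM as mean ± SD. Rps14, lost in human 5q- syndrome, stood at 540.5 ± 173 in the earlier (n = 3) and 813 ± 63.2 in the later P18 code (n = 3), and at 866 ± 275 and 897 ± 57.7 in the earlier and later P20 codes (n = 4 each). Rpl11, the partner of Rpl5 in binding Mdm2, stood at 492 ± 67.0, 636 ± 71.6, 822 ± 173 and 649 ± 38.9 in the same order. Rpl24, mutated in the Belly spot and tail mouse, stood at 263 ± 25.5, 388 ± 20.7, 418 ± 53.7 and 439 ± 19.8. Every one of these genes had its lowest mean in the earlier P18 code. Rpl38, mutated in the Tail short mouse, stood at 300.0 ± 44.7, 474 ± 79.2, 469 ± 126 and 439.8 ± 45.4. Rpl23, a large-subunit protein that also binds Mdm2, stood at 524 ± 129, 758 ± 16.8, 900.1 ± 149 and 735 ± 26.0. Rps4x, an X-linked small-subunit gene, stood at 419.5 ± 61.9, 652 ± 44.3, 741 ± 135 and 674 ± 23.2. For Rps14, Rpl24, Rpl38 and Rps4x the means of the later P18 code and of both P20 codes differed by less than the largest SD among them. For Rpl11 and Rpl23 they differed by more.

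**Figure D4:**
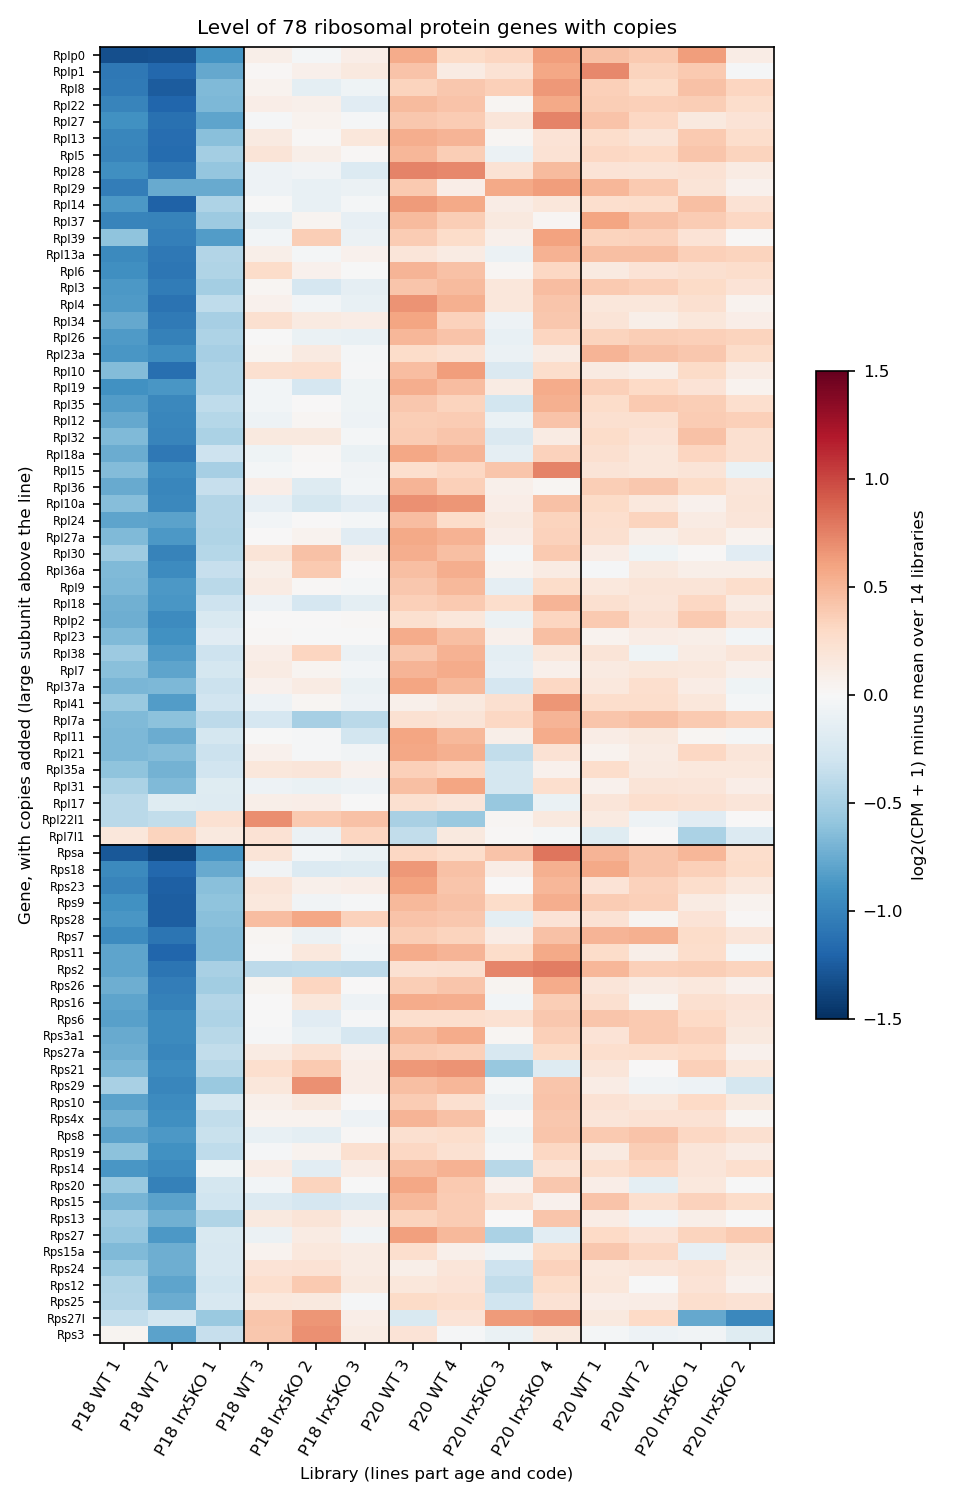
Level of 78 of the 80 expressed members with copies added, as log2(CPM + 1) minus the member's mean over 14 libraries (blue low, red high), large-subunit genes above the line and small-subunit genes below, libraries ordered by age and code. The first 3 columns, the earlier P18 code, are blue for nearly every gene, and Rpl7l1 and Rpl7a differ least between the P18 codes.

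Of other properties of the P18 libraries, some separated the codes as the ribosomal protein genes did and some did not. Reads on transcripts annotated as retained introns held 8.79% to 12.9% of counts there, 8.07% to 8.42% in the later P18 code, 6.99% to 8.71% in the later P20 code and 4.22% to 5.45% in the earlier one. Estimated counts numbered 36671532, 34483316 and 20554772 in P18 Irx5KO 1, WT 1 and WT 2. In the later-code Irx5KO 2, Irx5KO 3 and WT 3 they numbered 52863003, 70083873 and 46604801. Genes of at least 1 TPM numbered 14413, 18782 and 27366 in P18 Irx5KO 1, WT 1 and WT 2, against 14676 to 15230 in the later-code ones. Receptor genes held 0.432%, 1.78% and 5.37% of counts in those 3 and 0.401% to 0.579% in the later-code ones. The summed endothelial markers stood at 55.6 to 126 CPM there and at 30.5 to 40.5 CPM in the later code, the fibroblast markers at 155 to 214 and 81.1 to 126 CPM, the immune markers at 27.8 to 94.0 and 75.8 to 104 CPM, and the bulge genes at 23620.3 to 36354 and 32263 to 40797 CPM. Estimated counts, retained introns and the endothelial and fibroblast sums did not overlap between the P18 codes. The number of genes, the receptor reads and the immune and bulge sums did. The part of each in the difference was not tested. Without the 3 receptor-rich libraries, Irx5KO 1 is the only earlier-code P18 library left, and its share of counts on members and copies, 2.43%, was still under all 10 of the others that remain.

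Other genes with TOP messages had differences of the same sign, and lists of other ribosome genes had medians near 0. The list of other TOP messages held translation factors, such as Eef1a1 and Eef2 (elongation factors, named after their values were seen), and other genes such as Hnrnpa1. Of its 26 genes 21 were matched. All 21 had a positive difference between the P18 codes, with a median of 0.59, and 0 passed the edgeR test. Eef1a1 stood at 2745, 2027 and 1494 CPM in P18 Irx5KO 1, WT 1 and WT 2 and at 3639.6, 3126 and 3918 CPM in Irx5KO 2, Irx5KO 3 and WT 3, and Eef2 at 1632, 1179 and 921 CPM against 1979, 1926 and 2473 CPM, without overlap. The 4 tested genes outside the naming rule had a median of 0.50, with Rack1, a scaffold on the small subunit, at 314, 265 and 224 CPM against 436, 413 and 483 CPM. The 76 ribosome biogenesis factors had a median of -0.06 with 33 positive, 19 genes of RNA polymerase I and its factors a median of -0.08, and 81 mitochondrial ribosomal protein genes a median of 0.06. No gene of these lists passed the test between the P18 codes. The 17 genes of mTOR and Myc signalling had a median of -0.19, the 14 genes of the p53 response to disturbed ribosomes -0.04 and the 18 genes of cell division -0.40, also with 0 passed.

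The starts of the transcripts are shown because most messages of these genes are known to carry the TOP element. Whether that element bears on the difference between the P18 codes was not tested. Windows of 15 bases on either side of the RefSeq transcript start (GRCm38.p6, sense strand) held an unbroken run of 8 or more pyrimidines beginning with C at 27 of 75 starts of 63 matched members (36.0%), against 9.3% of 32851 starts of all genes. A run of 5 or more stood at 58.7% and 36.4%. Below, the longest such run is in capitals, and Rpl26 and Rplp0 have none in this window. The Rpl26 window ends upstream of the GENCODE gene start at chr11:68901583, so it cannot show how the counted gene's transcript begins. The starts printed are a selection. Of those looked at but not printed, Rpsa and Rpl10 had no run, and Rps19 and Rps21 had a run at some of their starts only.
Rps18 chr17:33955651-33955680 minus strand: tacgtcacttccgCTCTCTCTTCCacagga
Rps6 chr4:86857353-86857382 minus strand: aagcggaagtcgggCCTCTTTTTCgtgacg
Rpl13a chr7:45128731-45128760 minus strand: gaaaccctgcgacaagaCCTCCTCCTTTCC
Rps27 chr3:90213634-90213663 minus strand: atttccgctttcgCTCCTTTCCggcggtga
Rpl26 chr11:68901551-68901580 plus strand: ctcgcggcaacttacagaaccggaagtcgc
Rplp0 chr5:115559452-115559481 plus strand: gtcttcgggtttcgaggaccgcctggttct
A run is a match of letters only, and starts of other transcripts of the same gene can lie elsewhere.

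Between genotypes at P18, no ribosomal protein gene passed the test. With the code as a covariate, 0 of 83 members passed in edgeR, against 0.0% of all genes tested, 0 by DESeq2 and 0 by limma voom, and 0 had an unadjusted p under 0.05, against 3.97%. The median difference, Irx5KO minus WT, was 0.20 over members and -0.0022 over genes of at least 8 CPM, with 69 of 83 positive. With copies the median was 0.18. By gene counts it was -0.02 without the 3 receptor-rich libraries, 0.02 without Irx5KO 1, 0.44 without WT 3 and 0.45 with same-numbered libraries paired as a block. Within the earlier code, where Irx5KO is a single library, the median was 0.41, and within the later code, where WT is a single library, -0.01. The 3 members with the smallest p were Rpl3, Rps19 and Rpl35a. Rpl3, which lines the peptidyl transferase centre, stood at 66.3, 59.0 and 64.6 CPM in Irx5KO and 58.1, 53.2 and 43.3 in WT, a difference of 0.38 ± 0.23, and was the 1 member of 83 whose Irx5KO libraries all lay above WT, against 3.88% of all genes tested. In 0 of 83 did all Irx5KO libraries lie below WT, against 19.6%, and with copies 0 lay above and 0 below, against 3.92% and 19.7%. Among genes of at least 8 CPM, 8.34% lay above and 8.66% below, and with copies 8.36% and 8.72%. Rps19 stood at 96.2, 164 and 84.9 CPM against 97.9, 76.6 and 314 CPM, a difference of -0.60 ± 0.35, with WT 3 the highest. With copies Rps19 differed by 0.28 ± 0.21. Rpl35a differed by 0.43 ± 0.28.

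At P20, 0 of 83 members passed between the labelled genotypes in edgeR, against 0.0% of all genes tested, 0 by DESeq2 and 0 by limma voom, and 1 had an unadjusted p under 0.05, against 4.4%. The median difference was -0.12 over members and -0.01 over genes of at least 8 CPM, and with copies -0.15. The smallest p belonged to Rpl34, Rpl10 and Rpl17. Rpl34 stood at 20, 29.4, 14.3 and 23.4 CPM in Irx5KO 1 to 4 and 20.2, 17.3, 9.40 and 6.12 CPM in WT 1 to 4, a difference of 0.84 ± 0.33, but at -0.15 ± 0.19 with its copies. Rpl10, which joins the large subunit late in its assembly, differed by -0.44 ± 0.22 and with copies by -0.20 ± 0.21. Rpl17, near the exit tunnel, differed by -0.34 ± 0.18. All 4 Irx5KO libraries lay below all 4 WT libraries in 2 of 83 members by gene counts and in 2 with copies, against 0.708% and 0.672% of all genes tested, and above them in 0 of 83 either way, against 0.378% and 0.382%. Among genes of at least 8 CPM, 0.534% lay below and 0.762% above, and with copies 0.528% and 0.758%. The genotype difference at P20 minus that at P18 passed in 0 of 83 members in edgeR, DESeq2 and limma voom, against 0.0% of all genes tested, with 0 at an unadjusted p under 0.05 against 1.36%, and had a median of -0.32. Without P20 libraries 3 and 4, whose Irx5 goes against the labels, 1 member passed in each of these comparisons by gene counts and 0 with copies.

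Within P20 libraries 1 and 2, 0 of 83 members passed in edgeR, against 0.655% of all genes tested, 2 had an unadjusted p under 0.05 against 6.92%, and DESeq2 called 1 and limma voom 0. Rpl26 had the smallest p, with a difference of 4.38 ± 0.77 (adjusted p = 0.0649), and with copies it differed by -0.01 ± 0.24. Rps27l differed by -1.16 ± 0.46 and Rpl10a by 0.52 ± 0.28. The median over members was -0.04. In this comparison 9 of 18 division genes fell. With copies 0 passed, against 0.676% of all genes, with 1 at an unadjusted p under 0.05 against 6.99%. Both Irx5KO libraries lay below both WT libraries in 24 of 83 members with copies, against 17.3% of all genes tested, and above in 8, against 12.7%. By gene counts these were 20 and 12, against 17.4% and 12.7%. Among genes of at least 8 CPM, 20.7% lay below and 21.1% above, by either count.

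Within P20 libraries 3 and 4, 4 members fell under the Irx5KO label, in the libraries where Mki67 and Irx5 were high, and the part of the division genes in this was not tested. These were 4 of 83, and 0 rose, against 2.63% of all genes tested that fell, 2.2% that rose and 4.83% in either direction. Rps21, a small protein of the small subunit, stood at 96.5 and 126 CPM in Irx5KO 3 and 4 and 226 and 231 CPM in WT 3 and 4, a difference of -1.04 ± 0.24 (log2 ± SE, adjusted p = 0.0218). Rps27, a zinc finger protein of the small subunit, stood at 146 and 182 CPM against 312 and 284 CPM, a difference of -0.86 ± 0.23 (adjusted p = 0.0466). The labelled genotypes did not overlap in either gene. Both passed with copies too, where 2 of 83 were called against 4.99% of all genes, at adjusted p = 0.0209 and 0.0455. Rps23 stood at 42.4 and 37.7 CPM against 84.1 and 97.3 CPM, with adjusted p = 0.0232, and Rpl26 at 23.6 and 27.8 CPM against 89.0 and 551 CPM, with adjusted p = 0.0329, but with copies they differed by -0.24 ± 0.25 and -0.34 ± 0.24 and did not pass. The Irx5KO libraries lay below both WT libraries in 36 of 83 members with copies, against 24.8% of all genes tested and 29.2% of those of at least 8 CPM, and above in 8 against 15.8%. By gene counts these were 36 and 7, against 24.9% and 15.7%. Among genes of at least 8 CPM, 28.5% lay above with copies and 28.4% by gene counts, and 29.2% lay below by gene counts. The median was -0.20 over members and -0.01 over genes of at least 8 CPM. Without any 1 of these 4 libraries, edgeR called 1 member by gene counts and 0 with copies, and without P18 Irx5KO 2, P18 Irx5KO 3, P20 Irx5KO 1 or P20 Irx5KO 2 it called 2 and 1. DESeq2 called 11 members and limma voom 6. In the same comparison 17 of 18 genes of cell division rose. Of 76 ribosome biogenesis factors 3 rose, Nop56, Ltv1 and Rrp12, and 0 fell, against the 2.2% of all genes that rose. Among lists of other kinds, 2 of 13 bulge genes fell and 0 rose, with summed levels of 29969 to 32196 CPM in Irx5KO 3 and 4 and 43781 to 53091 CPM in WT 3 and 4. Of 21 immediate-early genes, known to respond to tissue dissociation, 4 fell and 0 rose, with 22350.3 to 32249 CPM against 59379 to 61796 CPM. Of the endothelial markers 2 of 6 fell (4.27 to 6.87 CPM against 7.66 to 13 CPM), of the fibroblast markers 1 of 7 (292 to 304 against 209 to 327 CPM) and of the melanocyte markers 1 of 6 (76.5 to 80.2 against 245 to 254 CPM), and 0 of these rose. The part of these lists in the fall of the members was not tested. Among the TOP messages outside the ribosome, Hnrnpa1 and Nap1l1 rose and Tpt1 fell. In P20 Irx5KO 1, Irx5KO 2, WT 1 and WT 2, Rps21 stood at 185, 162, 164 and 144 CPM and Rps27 at 255, 265, 249.8 and 232 CPM.

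The genotype difference itself differed between the P20 codes in 1 of 83 members, against 5.18% of all genes tested: Rpl26, by 8.02 ± 1.07 (adjusted p = 0.00388, edgeR). It is the difference between 4.38 ± 0.77 in libraries 1 and 2 and -3.64 ± 0.74 in libraries 3 and 4, and the sign of the latter rests on labels that Irx5 goes against. With the labels of libraries 3 and 4 turned, both would be positive, so this value and the others of this comparison hold only under the labels. DESeq2 called 8 and limma voom 2. With copies 0 passed, against 5.35% of all genes, with 4 at an unadjusted p under 0.05 against 16.2%, and Rpl26 differed by 0.33 ± 0.34. Rps21 then had the smallest p, with 1.21 ± 0.34 (adjusted p = 0.0503).

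Between ages the medians were positive in both genotypes, and each age has its own codes, so age and code cannot be told apart. Mitochondrial genes held 1.47% to 1.94% of counts in the P18 libraries and 0.442% to 0.779% in the P20 libraries, without overlap. Some markers of other cells had negative medians in WT, P20 minus P18: -1.78 over 6 endothelial, -1.62 over 6 muscle and -1.62 over 9 immune genes, of which 0, 0 and 2 were positive and 0 passed. Their summed levels were 40.5 to 126, 4.73 to 44.3 and 59.1 to 94.0 CPM in P18 WT and 7.66 to 50.2, 1.47 to 16.0 and 20.7 to 79.7 CPM in P20 WT. The fibroblast sums overlapped between the ages, at 126 to 214 CPM in P18 WT and 117 to 327 CPM in P20 WT. So did the melanocyte sums, at 132 to 251 and 107 to 254 CPM. The 18 division genes had a median of 0.99 in WT and 4.43 in Irx5KO, with 0 passed. In Irx5KO their summed level was 56.8 to 91.8 CPM at P18 and 74.4 and 61.5 CPM in P20 Irx5KO 1 and 2. It was 3218 and 3521 CPM in P20 Irx5KO 3 and 4, where Irx5 goes against the labels. In WT it was 80.1 to 251 CPM at P18 and 1072, 628, 33.5 and 23.0 CPM in P20 WT 1 to 4. The part of these in the age differences was not tested. In WT, P20 minus P18, the median was 0.78 over members and 0.01 over genes of at least 8 CPM, and with copies 0.83. By edgeR 0 of 83 passed, against 0.195% of all genes tested, with 55 at an unadjusted p under 0.05 against 9.68%. With copies 0 passed as well, against 0.187%, with 70 at an unadjusted p under 0.05 against 9.74%. By other tools 35 (DESeq2) and 71 (limma voom) were called. Without P18 WT 3, the only later-code WT library at P18, edgeR called 10 of 83 by gene counts and 11 with copies, and the median was 1.14. Without the 3 receptor-rich libraries, which leaves WT 3 as the P18 WT library, the median was 0.22. With copies all 4 P20 WT libraries lay above all 3 P18 WT libraries in 60 of 83 members, against 4.84% of all genes tested, and below in 1, against 7.53%. By gene counts these were 41 and 0, against 4.83% and 7.51%. Among genes of at least 8 CPM, 10.4% lay above and 7.98% below, and with copies 10.4% and 8.03%. Rps15, a protein of the small-subunit head and the smallest p by gene counts, stood at 164, 151 and 233 CPM in P18 WT 1 to 3 and 362, 318, 375 and 350.1 CPM in P20 WT 1 to 4, a difference of 0.94 ± 0.21 (adjusted p = 0.0936). Rpl28 differed by 1.26 ± 0.31 and Rpl11 by 0.93 ± 0.23.

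In Irx5KO the median age difference was 0.26, and with copies 0.33, against 0.03 over genes of at least 8 CPM. By gene counts 0 of 83 passed in edgeR, against 1.57% of all genes tested, with 12 at an unadjusted p under 0.05 against 13.5%, and DESeq2 and limma voom called 2 each. With copies 1 rose and 0 fell, against 0.643% of all genes that rose and 1.63% in either direction: Rps2, by 0.98 ± 0.23 (adjusted p = 0.0428). Rps2 with copies stood at 412, 442 and 439.8 CPM in P18 Irx5KO and 744, 723, 955 and 984 CPM in P20 Irx5KO, without overlap, and in WT at 333, 269 and 439 CPM at P18 against 813, 736, 676 and 681 CPM at P20, a difference of 1.07 ± 0.23 that did not pass (adjusted p = 0.0873). All P20 Irx5KO libraries lay above all P18 ones in 23 of 83 members with copies, against 5.28% of all genes tested, and below in 1, against 8.67%. By gene counts these were 15 and 1, against 5.26% and 8.58%. Among genes of at least 8 CPM, 10.6% lay above and 11.8% below, by either count. In this genotype 9 of 76 ribosome biogenesis factors rose, among them Nob1 by 1.54 ± 0.29 and Nop16 by 1.43 ± 0.28, and 3 of 19 polymerase I genes, led by Polr1c at 1.43 ± 0.28. Their medians were 0.54 and 0.28. Polr1c also rose in WT, by 1.63 ± 0.28 (adjusted p = 0.0308), where 0 biogenesis factors passed. The call of Rps2 ended when any library other than P18 WT 2, P20 WT 1 or P20 WT 2 was left out, and without P20 libraries 3 and 4. Set against the later-code P18 libraries alone, all 8 P20 libraries were higher in 20 of 83 members with copies, against 2.73% of all genes tested, and lower in 1, against 3.91%. Among genes of at least 8 CPM these shares were 5.75% and 5.97%.

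Between the P20 codes the median over members, later minus earlier, was -0.08, against -0.03 over genes of at least 8 CPM. By gene counts Rps18 rose by 1.66 ± 0.20 (adjusted p = 0.00293), Rpl12 rose by 1.22 ± 0.31 (adjusted p = 0.0281) and Rpl36a fell, at -0.69 ± 0.20 (adjusted p = 0.0426), 3 of 83 against 9.26% of all genes tested. Without P20 Irx5KO 2, WT 2, Irx5KO 4 or WT 4 edgeR called 1, and over all libraries DESeq2 called 5 and limma voom 3. With copies 0 passed in edgeR, against 9.49%, with 1 at an unadjusted p under 0.05 against 33.2%. Rps18 then differed by -0.04 ± 0.18, Rpl12 by 0.02 ± 0.19 and Rpl36a by -0.22 ± 0.18. Rpl12, a protein at the stalk base, has an identical coding sequence in its copy Gm10275, which held 168 to 541 CPM over the 14 libraries against 7.96 to 49.2 CPM for the gene. Of 76 biogenesis factors, 8 rose in the later code and 0 fell, among them Gnl3 by 1.17 ± 0.25, and the median was 0.25. The 9.26% of all genes called counts both directions together, so it is not a measure for rises alone. Of markers of other cells, higher in the later code, 2 of 6 endothelial, 2 of 9 immune, 2 of 6 muscle and 1 of 6 melanocyte genes passed, with medians of 3.84, 2.33, 4.50 and 2.51. Their summed levels were 4.27 to 13, 20 to 33.8, 0.718 to 2.91 and 76.5 to 254 CPM in the earlier and 13.3 to 50.2, 62.9 to 145, 3.48 to 16.0 and 107 to 231 CPM in the later code. The melanocyte sums overlapped between the codes and the other 3 did not. The summed fibroblast markers tended the other way, with overlap, at 209 to 327 CPM in the earlier and 52.0 to 245 CPM in the later code. The part of all these markers in the differences was not tested.

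**Figure D5:**
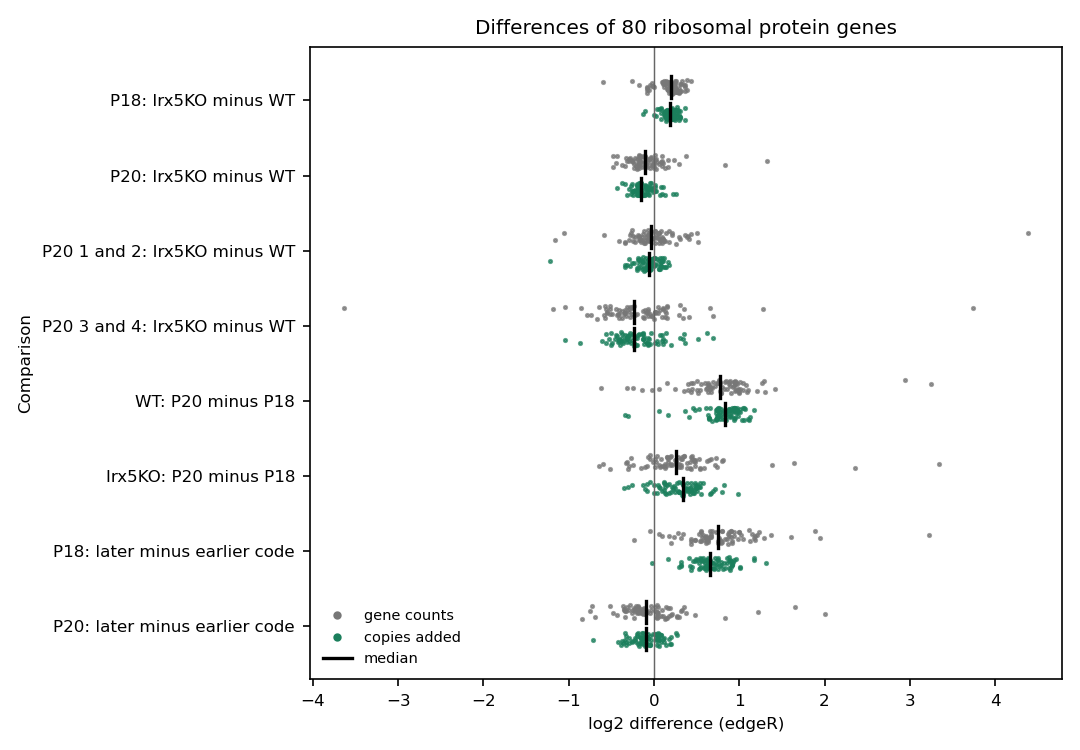
Log2 differences (edgeR) of the 80 expressed members in 8 comparisons, by gene counts (grey) and with copies added (green), each point a gene and black bars the median. Points far from the rest in grey, such as Rpl26 near 4.38 and -3.64 within the P20 codes and Rps18 near 3.22 between the P18 codes, have no counterpart in green, and the medians of WT age and of the P18 codes lie furthest from 0.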

How the data were processed

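RNA-seq tables of 14 libraries of sorted hair follicle stem cells were used. The submitters' processing notes name kallisto 0.46.2, the build mm10 and DESeq2, without saying which step each served. The deposited tables give, per the file headers, estimated counts and TPM for each transcript. Transcripts were matched to the GENCODE annotation by identifier: 116816 of 118489 matched, and those without a match held 1.19% to 2.59% of counts. Estimated counts were summed by gene and rounded to whole numbers, and deposited TPM values were summed by gene. In the alternative with copies, counts of near-identical genes, found with BLAST 2.17.0, were added to their member and their own rows dropped.

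Genes were kept by filterByExpr (24592 of 36047, and 24108 with copies added), and all 83 members passed. Scaling used TMM over genes averaging at least 8 CPM. The robust edgeR 4.0.16 quasi-likelihood test (R 4.3.3) was fitted over all libraries with age, genotype and file code, and p-values were adjusted by Benjamini-Hochberg over all genes tested. Standard errors were derived from the F statistic and are approximate. A member was called at an adjusted p under 0.05. DESeq2 1.42.0 and limma 3.58.1 (voom), other scalings, filters, length offsets, a replicate block and leaving out libraries were alternatives. The edgeR step was tested on simulated data. The code comparisons and the adding of copies were chosen after seeing the data, and the members and lists were chosen with earlier results of these data known.

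Named members were a set of known roles and the paralogues, up to 6 called in each direction or the 3 with the smallest p, and the 5 highest, lowest, widest and steadiest. Same-numbered P18 libraries correlated in their deviations from group means (r = 0.374, 0.175 and 0.275), so the block pairs them, and at P20 they did not all exceed 0.1. No libraries were duplicates: the chi-square per degree of freedom between libraries of a group was at least 61.2. The build of the coding sequences is GRCm38. Some genes are counted in the totals but not reported here by name or drawn by name.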

Additional observations from a re-analysis of the deposited data

Results flagged for a closer look

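Among groups of 4 P20 libraries, a library far from the other 3 was looked for in every member, with Dixon's ratio of its gap to the whole range, and 15 of 166 groups passed. About 1 in 20 groups of independent normal values would pass. The groups here share libraries, mix both codes and in part hold 0 in 3 libraries, so the count cannot be set against chance. The named ones follow, each with its ratio. Rpl26 was far higher in P20 WT 4 (551 CPM, ratio 0.875) than in WT 1, 2 and 3 (28.3, 23.2 and 89.0 CPM). Rps14 was lowest in P20 Irx5KO 3 (265 CPM, ratio 0.882) against 402, 419.9 and 411 CPM in Irx5KO 1, 2 and 4. Rpl10 was highest in P20 WT 1 (125 CPM, ratio 0.933) against 87.7, 86.0 and 88.6 CPM in WT 2, 3 and 4. In the paralogues the ratio was 1.0 because the other 3 libraries were listed at 0: Rpl3l, Rpl10l and Rpl39l in P20 WT 2, a library rich in receptor reads, at 1.93, 0.790 and 0.513 CPM, and Rpl3l and Rpl10l in P20 Irx5KO 1, at 0.431 and 0.0575 CPM.

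The genotype difference of Rpl26 was 8.02 (log2, edgeR) larger in P20 libraries 1 and 2 than in libraries 3 and 4, by a test of the difference itself, and 0.33 with copies added, which did not pass. The differences were 4.38 ± 0.77 and -3.64 ± 0.74, and the sign of the latter rests on the labels of libraries 3 and 4, which Irx5 goes against.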

How the results depend on the processing

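Counts of members called are given by setting. No member was called between P18 genotypes under any setting tried. Between the P18 codes (2 called) the count was 11 with no expression filter, 23 by DESeq2, 18 by limma voom, 1 with pseudogenes of the same symbol added, 1 without the 3 receptor-rich libraries, 4 without P20 libraries 3 and 4, 0 with copies added, and 1 to 3 leaving out single libraries. Between the P20 codes (3 called) it was 5 with no filter, 5 by DESeq2, 1 with P20 libraries only, 1 without the receptor-rich libraries, 0 with copies, and 1 to 4 leaving out single libraries, and the Rps18 difference turned from 1.66 to -0.0427 with copies. At P20 between genotypes (0 called) it was 1 with no filter and 1 without libraries 3 and 4, and for the P20 minus P18 genotype difference (0) it was 1 without them.

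Within P20 libraries 1 and 2 (0 called) the count was 1 with scaling over all genes, a 1 CPM filter, DESeq2, length offsets, pseudogenes of the same symbol or without libraries 3 and 4, 2 with no filter, and 0 to 1 leaving out single libraries. Within libraries 3 and 4 (4 called) it was 2 with scaling over all genes, raw library sizes or copies, 11 by DESeq2, and 1 to 4 leaving out single libraries. With copies (2) it was 0 with scaling over all genes, 1 with raw sizes and 0 to 2 leaving out single libraries. The difference between both (1 called) gave 2 with raw sizes, scaling without ribosomal protein genes, no filter, voom, length offsets or pseudogenes, 4 with 1 CPM, 8 by DESeq2, 3 with P20 libraries only or without the receptor-rich libraries, 0 with copies and 1 to 3 leaving out single libraries. With copies (0) it gave 1 without the receptor-rich libraries and 0 to 1 leaving out single libraries.

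By age in WT (0 called) the count was 35 by DESeq2, 71 by voom, and 0 to 10 leaving out single libraries, or 0 to 11 with copies. By age in Irx5KO (0) it was 2 by DESeq2 and voom, 1 with copies, without the receptor-rich libraries or without P20 libraries 3 and 4, and 0 to 1 leaving out single libraries. With copies (1) it was 0 without P20 libraries 3 and 4 or with scaling over all genes, 2 with raw sizes and 0 to 1 leaving out single libraries. The cause of these changes was not tested. With the replicate block for pairing, 0 members were called between genotypes at P18, at P20 and in their difference. Same-numbered P20 libraries had correlations of -0.001, 0.337, 0.081 and 0.270. Scaling over all genes raised the factor of P18 WT 2 from 1.02 to 1.498. All members but Rpl3l, Rpl10l and Rpl39l averaged at least 5 TPM, and for these 3 depth limits what can be seen.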

Other observations

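The immediate-early genes, described above only for P20 libraries 3 and 4, are known to respond to stress during tissue dissociation. Their summed level (21 of 22 listed genes matched) stood at 15344 to 46399 CPM in the earlier-code P18 libraries, 36353 to 39311 CPM in the later-code ones, 23964 to 47529.8 CPM in the later P20 code and 22350.3 to 61796 CPM in the earlier one. In that earlier P20 code the libraries labelled Irx5KO 3 and 4 stood at 22350.3 and 32249 CPM and WT 3 and 4 at 61796 and 59379 CPM. The summed level of 11 genes of Sca1-positive epidermis stood at 9168 CPM in P20 Irx5KO 1 and at 871 to 3253 CPM in the other 13 libraries.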
